A study of Mus musculus with 27 samples.

Results

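The 9 genes described here encode enzymes that work in the citric acid cycle of the mitochondrial matrix. They are Cs (citrate synthase), Idh3a, Idh3b and Idh3g (the subunits of the NAD-dependent isocitrate dehydrogenase), Ogdh (the E1 subunit of the 2-oxoglutarate dehydrogenase complex), Sucla2 and Suclg1 (the ADP-forming beta subunit and the shared alpha subunit of succinyl-CoA synthetase), Fh1 (fumarase) and Mdh2 (mitochondrial malate dehydrogenase). They were taken by gene symbol from a table of 36333 genes. All 9 were found, and all 9 passed the filter on low values in each tissue (a value of 1 or more in at least 4 samples). The samples were liver, omental adipose tissue and skeletal muscle from male MlxKO mice at 5 months (n = 4 per tissue) and 20 months (n = 5 per tissue), 27 bulk RNA-seq libraries in all. Ages are those of the sample titles. The codes in the labels carry 5 for the 5-month libraries but a number lower than 20 for the 20-month ones. The paper's supplement lists entries with matching end digits for these tissues at that lower age in months. Its main text gives 20 months, which is used here as the name of the group. At 5 months the same 4 mice, by the numbers in the labels, gave all 3 tissues, and they are called A to D here in ascending order of those numbers. At 20 months the labels number the mice separately for each tissue, and these numbers are kept. Whether some of these tissues came from the same mouse is not known.

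Each mouse was Mlx Flox/Flox and carried the allele Gt(ROSA)26Sortm1(cre/ERT2)Tyj on a B6.129 background. CreER, driven by the ROSA26 promoter in all cell types, had been activated at weaning, once a mouse weighed 15 g or more, by 5 daily intraperitoneal doses of tamoxifen at 75 mg/Kg in corn oil. Both ages therefore carry the deletion and the tamoxifen exposure, and the contrast within each tissue is between ages. The time since the deletion rose with age, so age and time without Mlx cannot be told apart here. Wild-type samples were not analysed here. Mlx is the partner through which MondoA and ChREBP bind DNA. Reads assigned to Mlx remained in every library, with the lowest values in muscle (7.04 to 11.6), then adipose tissue (8.19 to 13.9) and liver (18.8 to 32.4). Without wild-type samples this level does not check the deletion. By qRT-PCR in the paper, more Mlx transcript relative to wild type was left in skeletal muscle than in adipose tissue, and least in liver. The order of the values is therefore not the order of deletion, and the tissues compared below differ in its extent. In the same qRT-PCR values, more transcript also tended to be left in older adipose tissue and muscle than at 5 months, with overlapping ranges. The extent of deletion may therefore differ with age as well, which was not tested here. The age difference in Mlx itself did not pass the test in any tissue (adjusted p = 0.168, 0.349 and 0.503 in liver, adipose tissue and muscle, limma).

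The citric acid cycle oxidises the acetyl group of acetyl-CoA to carbon dioxide and passes the electrons to the respiratory chain. Citrate synthase admits the acetyl group, isocitrate dehydrogenase and the 2-oxoglutarate dehydrogenase complex release carbon dioxide with reduction of NAD, and succinyl-CoA synthetase makes a nucleoside triphosphate directly. Fumarase and malate dehydrogenase then regenerate oxaloacetate. In liver the cycle also exports carbon for gluconeogenesis and urea synthesis, in white adipose tissue it supplies citrate for fatty acid synthesis, and in skeletal muscle it mainly serves ATP production.

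Values are on the scale of the deposited table, which is headed CPM and holds reads divided by a factor specific to each library. The libraries held 14384695 to 25673919 reads on genes (median 19007751), and their 20 most abundant genes took 9.56 to 29.2% of the reads, least in adipose tissue and most in muscle. A log2 difference is the difference of mean log2(value + 1), tested with limma and the Benjamini-Hochberg adjustment over all genes at a threshold of 0.05. Liver libraries held hepatocyte transcripts at a summed level of 46084.5 or more, muscle libraries held fast-fibre transcripts at 130529 or more, and adipose libraries held adipocyte transcripts at 6057 to 13587. In bulk tissue, fewer cells of a type and less RNA per cell cannot be told apart. Samples of 1 tissue came from separate mice. The 20-month liver of mouse 74 stood apart for these genes, and values without it are given below.

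The highest levels of nearly all the enzymes were in muscle. At 5 months, muscle levels exceeded adipose levels 4.76-fold (Idh3g) to 12.8-fold (Idh3a), and at 20 months 5.03-fold (Idh3g) to 8.62-fold (Sucla2). The size of these differences depended on the fit, though no call was lost in any alternative fit. At 5 months the log2 difference, adipose minus muscle, ranged from -2.34 to -1.54 for Idh3g and from -3.84 to -2.97 for Idh3a. The values of a library summed to 559419 to 646657 in adipose tissue and to 1064026 to 1240396 in muscle. All 9 genes were lower in adipose tissue than in muscle at both ages, against 30.9% of all genes tested at 5 months and 33.9% at 20 months (41.9% and 42.1% were higher). Liver was also below muscle for 7 of the 9 at 5 months and 8 of the 9 at 20 months, against 36.8% and 38.1% of all genes (72.9% and 77.2% were called in either direction, as were 8 of the 9 at each age). The exceptions were Suclg1 and, at 5 months, Fh1.

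**Figure D1:**
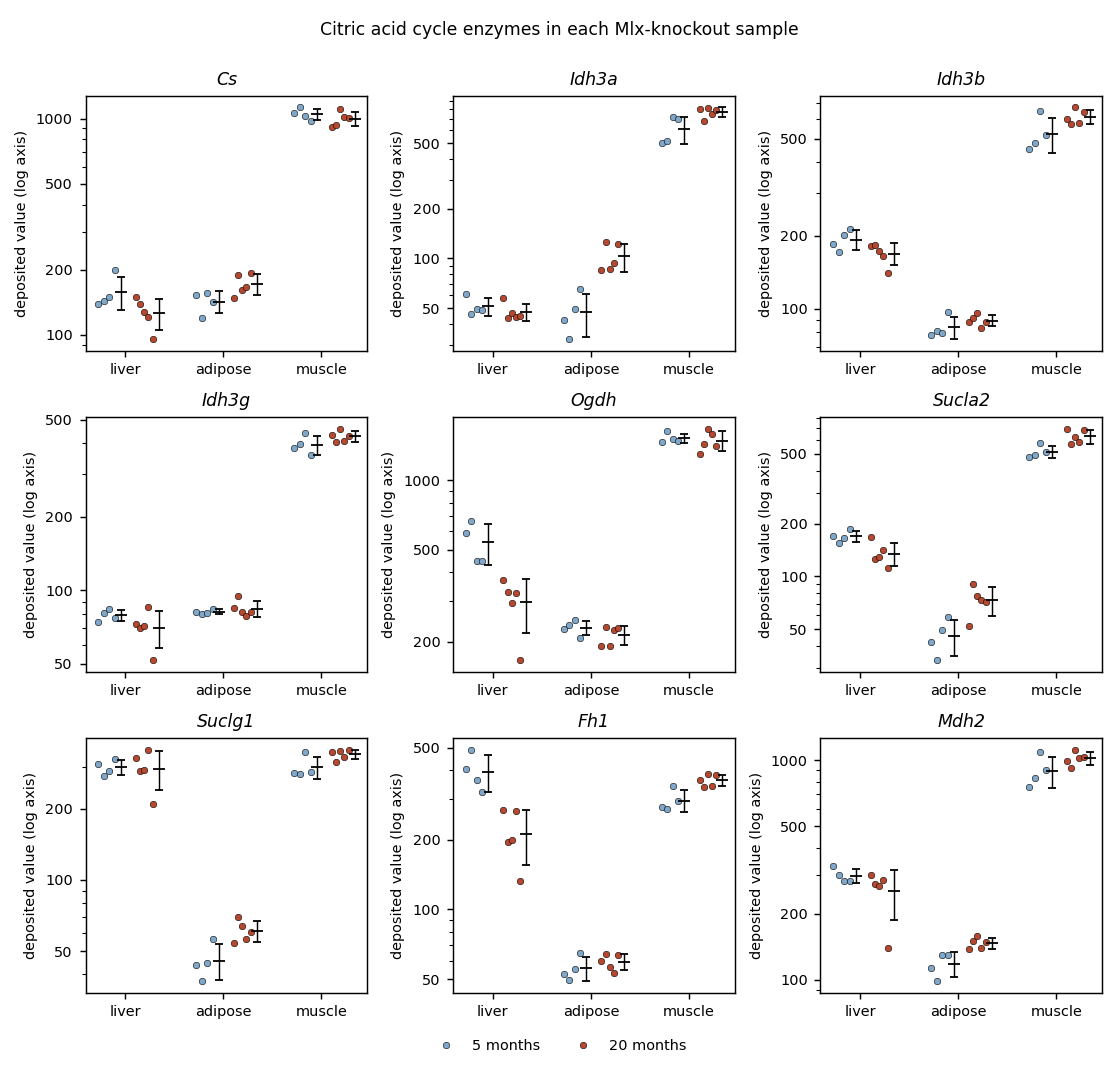
Deposited value (log axis) of each of the 9 genes in each of 27 libraries, grouped by tissue and age, with the group mean as a bar. Muscle libraries sit highest for most genes, Fh1 and Suclg1 reach similar values in liver and muscle, and the 20-month liver of mouse 74 is the lowest of its group for 8 of 9 genes.

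The spread of levels over tissues differed from gene to gene. Idh3a, the catalytic subunit of its enzyme, had the widest one, with 5-month means of 608 ± 114 (SD, n = 4) in muscle, 51.4 ± 6.43 in liver and 47.4 ± 13.8 in adipose tissue. Suclg1 had similar levels in liver and muscle on the deposited scale, with 5-month values of 308, 273, 289 and 325 in liver against 281, 279, 347 and 285 in muscle. These groups overlapped, and the liver to muscle ratio was 1.0 with a 95% interval of 0.832 to 1.21 (adjusted p = 0.973, limma). At 20 months the ratio was 0.855 with an interval of 0.723 to 1.01 (adjusted p = 0.0834, limma), and it passed the threshold without the liver of mouse 19 (log2 -0.30, adjusted p = 0.0275). This depended on the scaling. Suclg1 was lower in liver at 20 months with median-of-ratios factors (log2 -0.27, adjusted p = 0.0420), quantile normalization (-0.38, 0.00214), the 20 most abundant genes left out of the scaling (-0.40, 0.000462) and removal of the length and GC trend (-0.63, 4.02e-06), and at 5 months with the last 2 of these (-0.27, 0.0270, and -0.38, 0.00417). Suclg1 encodes the alpha subunit that pairs with either beta subunit, the ADP-forming Sucla2 or the GDP-forming Suclg2.

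Fh1 had the opposite order at the 2 ages. At 5 months it was 1.32-fold higher in liver than in muscle (95% interval 1.05 to 1.66, adjusted p = 0.0258), and at 20 months it was 1.75-fold higher in muscle (1.43 to 2.14, adjusted p = 1.38e-05, both limma). The first call was lost without the liver of mouse A (adjusted p = 0.0533) or B (0.116), without the muscle of mouse A (0.0605) or B (0.0646), with median-of-ratios factors (0.0521), after quantile normalization (log2 0.17, adjusted p = 0.306), when the libraries were rescaled without their 20 most abundant genes (log2 0.13, adjusted p = 0.416) and with the trend on length and GC content removed (log2 0.17, adjusted p = 0.337). The second held in its own 25 alternative fits, 10 of which left out a 20-month library.

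Liver exceeded adipose tissue for 6 of the 9 genes at both ages, against 36.5% of all genes at 5 months and 35.7% at 20 months (39.9% and 38.8% were lower). At 5 months the excess was 6.93-fold for Fh1, 6.49-fold for Suclg1, 3.69-fold for Sucla2, 2.53-fold for Mdh2, 2.30-fold for Ogdh and 2.28-fold for Idh3b. Cs (1.10-fold, 95% interval 0.913 to 1.32), Idh3a (1.11-fold, 0.873 to 1.41) and Idh3g (0.967-fold, 0.832 to 1.12) did not pass the test at 5 months. At 20 months these last 3 were lower in liver than in adipose tissue: Idh3a 0.470-fold (adjusted p = 3.81e-07), Cs 0.732-fold (adjusted p = 0.00124) and Idh3g 0.828-fold (adjusted p = 0.0119, all limma), the last with an adjusted p of 0.0526 without the liver of mouse 74. This comparison of tissues depended on the scaling. Rescaled without the 20 most abundant genes, Cs, Idh3a and Idh3g were lower in liver already at 5 months (log2 -0.85, -0.82 and -1.03), Ogdh was lower at 20 months (log2 -0.33), and Idh3b passed the test at neither age (adjusted p = 0.0546 and 0.109), nor did Ogdh at 5 months (0.202), or Sucla2 (0.276) and Mdh2 (0.883) at 20 months. Quantile normalization gave 0.02 at 5 months and -0.42 at 20 months for Ogdh. The 20-month excess of Ogdh was also lost without the liver of mouse 16 (log2 0.33, adjusted p = 0.0615).

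Per kilobase of transcript, the scale on which genes can be set side by side, Mdh2 had the highest level of the 9 in muscle (614 per kb at 5 months, 701 at 20 months) and in adipose tissue (81.0 and 101). In liver, Mdh2 (205 ± 15.2 per kb, SD, n = 4) and Suclg1 (197 ± 14.9) led at 5 months, and Suclg1 (194 ± 35.7, n = 5) and Mdh2 (174 ± 44.4) led at 20 months. Neither pair of neighbours differed beyond its spread. Idh3a was the lowest of the 9 in liver at both ages (20.6 and 19 per kb) and in 5-month adipose tissue (19), and stood in the 6th place in 20-month adipose tissue (41.3). Fh1 was the lowest in muscle (112 and 137 per kb), whereas it stood 3rd in 5-month liver (150 ± 27.6) and 4th in 20-month liver (80.7 ± 21.5). The 3 subunits of isocitrate dehydrogenase were thus unequal in liver at 5 months, with 119 per kb for Idh3b, 59.4 for Idh3g and 20.6 for Idh3a. In muscle at the same age they lay closer, at 324, 296 and 244 per kb.

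**Figure D2:**
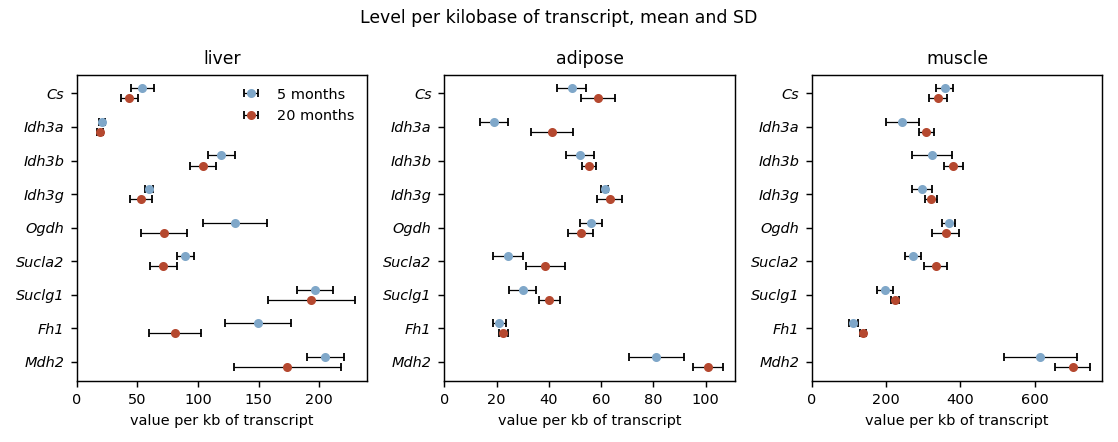
Mean deposited value per kilobase of transcript (linear axis) of the 9 genes in each tissue and age, with SD over samples. Mdh2 is highest in muscle and adipose tissue, Idh3a is lowest in liver, and Idh3a in adipose tissue moves from 19 to 41.3 per kb between 5 and 20 months.

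In liver, Fh1 and Ogdh fell between 5 and 20 months and the others did not pass the test. The fitted difference was below 0 for 9 of 9 genes, with a median of -0.29 on the log2 scale against 0.0011 over all 12654 genes tested. Of the 9, 2 were called lower and 0 higher, against 9.79% lower over all genes and 19.8% called in either direction. By another count, 2 of the 9 (the same genes) had ages that did not overlap, against 19.1% of all genes.

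Fh1 converts fumarate to malate, including fumarate released alongside the urea cycle. Its 5-month liver values were 404, 490.4, 361 and 321, and its 20-month values were 269, 195, 200, 266 and 133. All 5 old livers lay below all 4 young ones. The mean went from 394 ± 72.7 (SD, n = 4) to 213 ± 56.6 (n = 5), and the log2 difference was -0.91 ± 0.21 (SE), or 0.531-fold (95% interval 0.388 to 0.726, adjusted p = 0.0159, limma). The call was lost without the young liver of mouse B, which held the highest value (log2 -0.80, adjusted p = 0.0507), and held in the other 8 fits that left out a library.

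Ogdh decarboxylates 2-oxoglutarate in the first step of its complex. It read 589.5, 667, 449 and 446 in the young livers and 372, 328, 294, 324 and 167 in the old ones. Again the ages did not overlap, with the lowest value in mouse 74. The mean went from 538 ± 109 to 297 ± 77.8, a log2 difference of -0.88 ± 0.22 (0.542-fold, 95% interval 0.385 to 0.764, adjusted p = 0.0236, limma). The call was lost without the old liver of mouse 18 (adjusted p = 0.0563) or the young liver of mouse A (0.0614) or B (0.0720), with log2 differences of -0.77 to -0.89. Without mouse 74 both genes still passed (Fh1 log2 -0.76, Ogdh -0.69).

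The promoter windows of these genes are shown because they are the members that fell in liver. They are RefSeq sequences of build GRCm38.p6, running from 250 bases before to 50 bases after a transcript start. The mouse gene of Fh1 lies at chr1:175601378-175625635 on the minus strand, and Ogdh at chr11:6291597-6359094 on the plus strand. Capitals mark matches on either strand to the GC box GGGCGG, the E-box CACGTG (the core of the element bound by Mlx with MondoA or ChREBP, and by Myc with Max), the NRF1 core GCGCATGC, the ERR site AAGGTCA and the ETS motif CCGGAAGT.
Fh1 window chr1:175625586-175625885, minus strand: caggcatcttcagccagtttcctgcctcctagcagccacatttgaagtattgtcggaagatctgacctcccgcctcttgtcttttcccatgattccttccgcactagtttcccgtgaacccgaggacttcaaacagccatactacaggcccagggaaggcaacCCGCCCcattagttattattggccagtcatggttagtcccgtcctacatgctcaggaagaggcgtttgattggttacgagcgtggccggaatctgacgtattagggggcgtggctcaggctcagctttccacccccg
Ogdh window at the gene start, chr11:6291347-6291646, plus strand: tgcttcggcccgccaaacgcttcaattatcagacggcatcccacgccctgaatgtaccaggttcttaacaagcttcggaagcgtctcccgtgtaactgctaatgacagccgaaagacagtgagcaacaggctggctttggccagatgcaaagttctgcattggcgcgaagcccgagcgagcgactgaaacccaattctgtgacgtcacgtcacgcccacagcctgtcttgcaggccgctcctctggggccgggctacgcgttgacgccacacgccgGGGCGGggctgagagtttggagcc
Ogdh window at a later transcript start, chr11:6292308-6292607, plus strand: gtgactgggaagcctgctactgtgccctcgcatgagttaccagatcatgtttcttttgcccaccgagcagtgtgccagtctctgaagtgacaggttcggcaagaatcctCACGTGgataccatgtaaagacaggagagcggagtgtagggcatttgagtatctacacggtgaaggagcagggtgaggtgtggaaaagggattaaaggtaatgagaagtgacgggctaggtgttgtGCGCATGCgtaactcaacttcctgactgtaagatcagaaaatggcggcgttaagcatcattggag
The Fh1 and first Ogdh windows each held a single GC box. The later Ogdh window printed held an E-box and the NRF1 core, as did another that overlaps it. Of the 3 further Ogdh windows, 2 held a GC box only and 1 held an E-box, an ERR site and a GC box. The E-box and the NRF1 core were in 7.15% and 2.71% of all 32851 promoter windows. RefSeq windows at the gene start were found for 8 of the 9 genes, all but Idh3a. Of these, 5 (Cs, Ogdh, Sucla2, Fh1 and Mdh2) held a GC box, against 35.7% of all windows, and 0 of 8 held an E-box, an NRF1 core, an ERR site (4.72% of all windows) or an ETS motif (3.89%). A match is a description of the letters only.

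The other liver genes had estimates below 0 that did not pass the test. Sucla2 came closest, with 169, 155, 167 and 186 at 5 months and 167, 126, 129, 141 and 112 at 20 months (log2 -0.34, adjusted p = 0.0723). The old liver of mouse 16 overlapped the young values, and without it Sucla2 passed (log2 -0.42, adjusted p = 0.0170). Cs (-0.32), Mdh2 (-0.29), Idh3b (-0.19), Idh3g (-0.18), Idh3a (-0.11) and Suclg1 (-0.04) had adjusted p from 0.144 to 0.862. For Suclg1 the 95% interval of the log2 difference was -0.36 to 0.28.

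Mouse 74 was the lowest of the 5 old livers for 8 of the 9 genes, at a mean log2 deviation of -0.45 from its group, while mouse 16 was above its group mean for 9 of 9 (0.25). Summed hepatocyte markers were also lowest in mouse 74 (46084.5), at 87865.1 to 103167 in the other 4 old livers and 114031 to 175525 in young livers, with 2 of 6 markers lower by age and 0 higher. Macrophage markers ranged over 166 to 245 in young and 216 to 784 in old livers (3 of 6 higher), and fibroblast markers over 208 to 344 and 311 to 472 (4 of 6 higher). Of the B cell and red blood cell markers, 4 of 5 tested were higher in each list. Their part in the liver result was not tested. Rescaling without the 20 most abundant genes moved the median of all genes in liver by 0.159, from 1269 higher and 1239 lower calls to 2203 and 477. There Fh1 and Ogdh remained called, and Idh3a (0.06) and Suclg1 (0.13) turned above 0.

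In adipose tissue, Idh3a, Sucla2 and Suclg1 rose with age, 3 of 9 called higher and 0 lower, against 9.75% higher over all 14005 genes and 19.1% called in either direction. The difference was above 0 for 8 of 9, all but Ogdh (-0.11, adjusted p = 0.484), with a median of 0.27 against 0.0072 over all genes. Idh3a and Mdh2 (2 of 9) had ages that did not overlap, against 17.4% of all genes.

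Idh3a had the largest age difference of the 9 genes in any tissue. Its adipose values were 42.3, 32.5, 49.4 and 65.3 at 5 months and 85.4, 126.0, 86.2, 94.2 and 123 at 20 months. Every old sample exceeded every young one. The mean went from 47.4 ± 13.8 to 103 ± 19.9, a 2.18-fold rise (95% interval 1.59 to 3.0; log2 1.12 ± 0.21, adjusted p = 0.0138, limma). It passed in all 22 alternative fits, with log2 differences of 0.96 to 1.29. The gene lies at chr9:54586511-54604662 on the plus strand.

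The partner subunits were not called. Idh3g, a regulatory subunit, read 81.9, 80.1, 80.7 and 84.3 in young and 84.8, 94.8, 81.9, 78.3 and 81.6 in old adipose tissue. The ages overlapped, and the log2 difference was 0.04 with a 95% interval of -0.16 to 0.24. Idh3b, the other regulatory subunit, read 78.1, 81.3, 79.4 and 97.1 against 88.2, 91.3, 96.0, 83.7 and 88.0 (log2 0.09, interval -0.12 to 0.31). The ratio of Idh3a to Idh3g within a sample, which depends little on library scaling, rose with it. Its log2 went from -0.82 ± 0.38 (SD, n = 4) to 0.27 ± 0.24 (n = 5), a 2.12-fold rise (exact two-sided permutation p = 0.00794, the smallest that 126 splits allow, and 0.0476 after adjustment over 9 ratio tests). The ratio changed by 0.07 in liver (p = 0.714) and 0.23 in muscle (p = 0.127, both exact permutation tests).

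Both members of succinyl-CoA synthetase rose in adipose tissue, by less. Sucla2 read 42.5, 33.3, 49.4 and 58.6 at 5 months and 52.1, 90.6, 77.1, 73.8 and 71.5 at 20 months (1.58-fold, 95% interval 1.18 to 2.12, adjusted p = 0.0404, limma). Suclg1 read 43.8, 37.4, 44.7 and 56.4 against 54.3, 70.0, 64.2, 56.4 and 60.5 (1.34-fold, 1.10 to 1.64, adjusted p = 0.0486, limma). In both, the old sample of mouse 36 lay below the young sample of mouse D, and the other young samples lay below all old ones. For Suclg1 the old sample of mouse 39 equalled that of mouse D. Sucla2 was lost without the old samples of mice 37, 38, 39 and 40 or the young samples of mice A and B, each in turn (adjusted p up to 0.104), and Suclg1 without these or the young sample of mouse C (up to 0.124). Neither passed without the filter on low values (0.0642 and 0.0695), nor did Suclg1 without the variance trend (0.0575).
The windows of these members are given as for liver, since they were called in adipose tissue:
Sucla2 window chr14:73552536-73552835, plus strand: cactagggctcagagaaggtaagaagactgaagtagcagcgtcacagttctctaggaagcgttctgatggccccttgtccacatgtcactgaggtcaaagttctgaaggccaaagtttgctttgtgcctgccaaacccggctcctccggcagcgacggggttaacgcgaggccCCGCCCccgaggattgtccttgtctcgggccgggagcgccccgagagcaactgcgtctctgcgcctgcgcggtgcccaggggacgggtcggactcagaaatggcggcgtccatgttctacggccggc
Suclg1 window chr6:73248255-73248554, plus strand: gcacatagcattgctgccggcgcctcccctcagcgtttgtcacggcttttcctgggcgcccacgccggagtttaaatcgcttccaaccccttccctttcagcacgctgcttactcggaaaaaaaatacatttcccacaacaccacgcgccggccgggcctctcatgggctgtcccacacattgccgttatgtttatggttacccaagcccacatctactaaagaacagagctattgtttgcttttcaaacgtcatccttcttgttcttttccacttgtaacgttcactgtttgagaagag
The Sucla2 window held a GC box on the other strand and the Suclg1 window held none of the motifs searched. The genes lie at chr14:73552786-73596144 and chr6:73248505-73276907.

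Suclg2, the GDP-forming beta subunit, gave the opposite sign in adipose tissue, with means of 35.3 and 31.4 (log2 -0.17, adjusted p = 0.307). The ratio of Sucla2 to Suclg2 therefore rose 1.79-fold in adipose tissue (log2 0.34 ± 0.23 to 1.18 ± 0.40, exact permutation p = 0.0159, adjusted 0.0476). In liver it fell to 0.709-fold (log2 -0.73 ± 0.07 to -1.23 ± 0.26, exact permutation p = 0.0159, adjusted 0.0476), and in muscle it moved by 0.08 (p = 0.540). The values of Suclg2 are uncertain, because 16% of the 50-base words of its transcripts also occur in Gm15163. Mdh2 against its cytosolic counterpart Mdh1 changed by 0.09, -0.10 and -0.09 in liver, adipose tissue and muscle (exact permutation p = 0.595, 0.444 and 0.341).

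**Figure D3:**
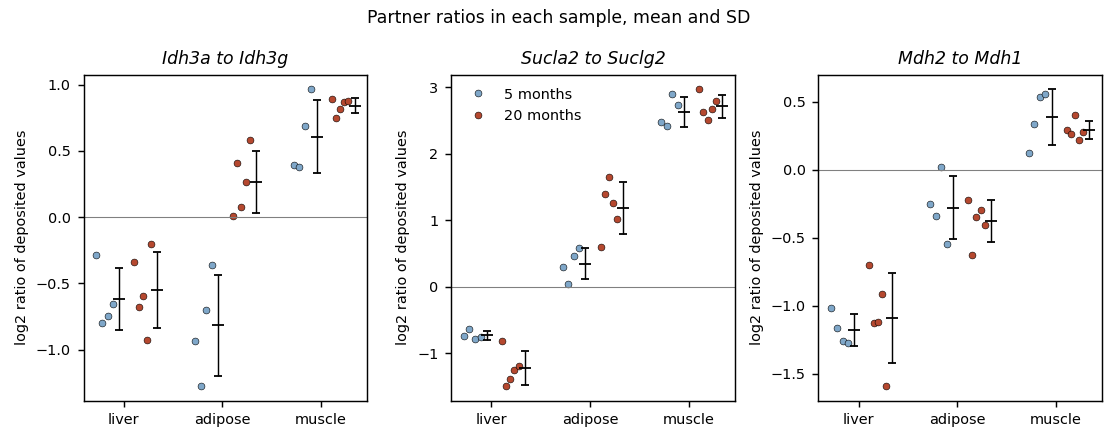
Log2 ratio within each sample for Sucla2 to Suclg2, Mdh2 to Mdh1 and Idh3a to Idh3g, by tissue and age, with group means. The Idh3a to Idh3g ratio of the 5 old adipose samples (0.01 to 0.58) lies above that of the 4 young ones (-1.27 to -0.36).

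Of the remaining adipose genes, Mdh2 read 113, 98.6, 130.2 and 130.4 in young and 138, 151, 158, 139.9 and 148 in old samples. The ages did not overlap, yet the test was missed (log2 0.32, adjusted p = 0.0668), and it passed without the young sample of mouse D (0.37, adjusted p = 0.0462). Cs had a log2 difference of 0.27 (adjusted p = 0.136) and Fh1 of 0.10 (adjusted p = 0.497). Several marker lists moved with age in the same adipose samples. Hepatocyte markers summed to 1877 to 3233 in young and 91.2 to 742 in old samples, macrophage markers to 645 to 1581 and 1036 to 5337, B cell markers to 3.25 to 18 and 12.3 to 169, and thermogenic adipocyte markers to 4.95 to 8.94 and 8.58 to 25.3. By age, 1 hepatocyte marker was lower, and 2 macrophage, 5 B cell and 2 thermogenic markers were higher. Endothelial markers ranged over 702 to 1452 and 489 to 892 (3 of 6 lower), mesothelial markers over 70.0 to 144 and 36.9 to 80.2 (3 of 6 lower) and red blood cell markers over 724 to 1733 and 311 to 794 (2 of 5 lower). Adipocyte markers ranged over 6057 to 13587 and 8686 to 12986 with 0 of 6 called. Muscle fibre markers were at 328 to 868 and 102 to 578, also with 0 called. Their part in the adipose result was not tested.

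In muscle the age differences were small. Fh1 rose, 1 of 9 called higher and 0 lower, against 9.13% higher over all 12720 genes and 19.3% called in either direction. The difference was above 0 for 7 of 9, with a median of 0.20 against 0.0168, and 0 of 9 had ages that did not overlap, against 17.3% of all genes. Fh1 read 276, 271, 341 and 293 at 5 months and 362, 339, 383, 342 and 381 at 20 months (1.23-fold, 95% interval 1.07 to 1.41, adjusted p = 0.0436, limma). The ages overlapped by 2 samples, the old muscle of mouse 57 (339) and the young muscle of mouse C (341). The call was lost without the filter on low values (adjusted p = 0.0688), without the variance trend (0.0678) and with all 27 samples in 1 fit (0.203). Fh1 kept its call in 1 of the 9 fits that left out a library, that without mouse C, and the other 8 gave log2 differences of 0.26 to 0.32 and adjusted p of 0.0580 to 0.112.

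Mouse C was the highest of the young muscles for 7 of the 9 genes. Without it 6 genes passed: Idh3a (log2 0.44), Idh3b (0.35), Sucla2 (0.34), Mdh2 (0.30), Suclg1 (0.26) and Fh1. With all samples, Idh3a read 503, 517, 714 and 698 in young and 802, 684, 813, 749.8 and 794 in old muscle (log2 0.35, adjusted p = 0.0635). Mice A and B were low, and mice C and D reached the old range. Idh3a also passed without mouse D (0.43, adjusted p = 0.0463). Cs and Ogdh lay below 0 (log2 -0.07, 95% interval -0.27 to 0.13, and -0.04, -0.26 to 0.18), and above 0 after quantile normalization (0.08 and 0.14) or rescaling without the 20 most abundant genes (0.01 and 0.04). This rescaling moved the share of higher calls over all genes in muscle from 47.4% (1161 of 2451) to 63.7% (1732 of 2721). Muscle fibre markers ranged over 142487 to 167480 in young and 130529 to 157705 in old muscle, and slow fibre markers over 218 to 1957 and 219 to 599, with 0 of 6 called in each list. Fibroblast markers summed to 1018 to 1446 and 525 to 898, with 5 of 6 lower, and 3 of 5 red blood cell and 2 of 6 macrophage markers were lower. Their part in this result was not tested.

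**Figure D4:**
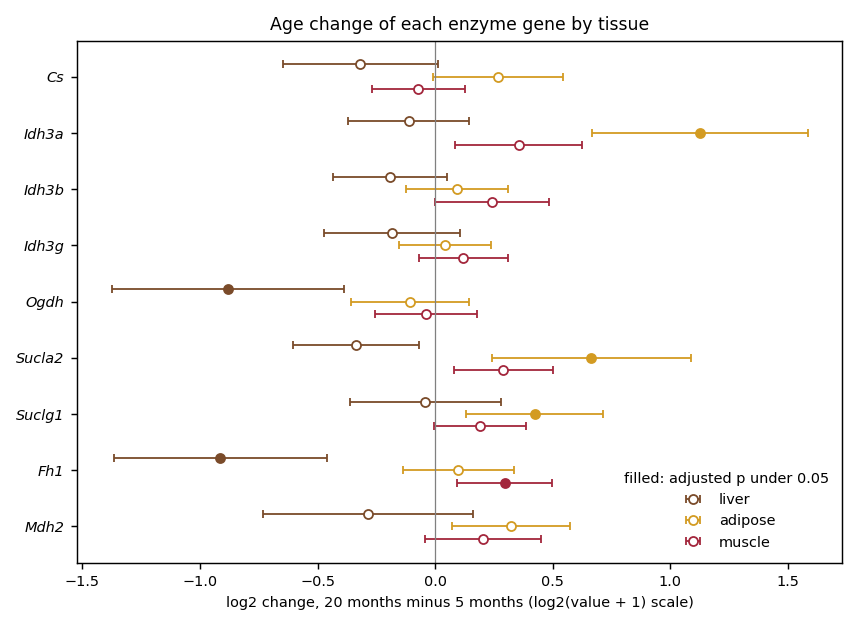
Log2 difference between 20 and 5 months for each of the 9 genes in each tissue, with 95% intervals. Liver estimates lie below 0 for 9 of 9 genes, adipose estimates above 0 for 8 of 9 and muscle estimates above 0 for 7 of 9.

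Whether the age difference itself differed between tissues was tested as an interaction over all 27 samples (15572 genes). Liver and adipose tissue differed for 5 of the 9 genes, against 15.6% of all genes: Idh3a (log2 -1.24 ± 0.22, liver minus adipose, adjusted p = 0.000853), Fh1 (-1.01 ± 0.21, adjusted p = 0.00281), Sucla2 (-1.0 ± 0.20, adjusted p = 0.00221), Ogdh (-0.77 ± 0.23, adjusted p = 0.0256) and Cs (-0.59 ± 0.18, adjusted p = 0.0250). All 9 estimates were below 0, with a median of -0.61. The first 3 passed in all 32 alternative fits. Ogdh was lost without the young liver of mouse A (adjusted p = 0.0513) or B (0.0643), and Cs without the young adipose sample of mouse B (0.0641) or the young liver of mouse D (0.0660). Both were also lost after quantile normalization (Ogdh log2 -0.43, adjusted p = 0.154, Cs 0.0518), with the 20 most abundant genes left out of the scaling (0.0707 and, with log2 -0.35, 0.115) and in edgeR (both 0.0584).

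Liver and muscle differed for 4 of the 9, against 17.5% of all genes. These were Fh1 (-1.21 ± 0.21, liver minus muscle, adjusted p = 0.000608), Ogdh (-0.84 ± 0.23, adjusted p = 0.0144), Sucla2 (-0.63 ± 0.20, adjusted p = 0.0353) and Idh3b (-0.43 ± 0.15, adjusted p = 0.0410, all limma). Fh1 and Ogdh passed in all 32 alternative fits. Sucla2 passed in 6 and Idh3b in 7 of the 18 fits that left out a library. Adipose tissue and muscle differed for 1 of the 9, Idh3a (0.77 ± 0.22, adjusted p = 0.0231), against 14.7% of all genes. This call was lost without the young adipose sample of mouse B (0.61, adjusted p = 0.0659) or the young muscle of mouse D (0.70, adjusted p = 0.0525). Each pair of these interaction tests shares the samples of a tissue.

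Within a tissue and age most pairs of the genes varied together from mouse to mouse. Over the 36 pairs of genes, the correlation of deviations from the group means across 9 samples had a median of 0.69 in muscle, 0.63 in liver and 0.55 in adipose tissue. It was above 0 for 35 pairs in liver, 31 in adipose tissue and 28 in muscle. The pair with the highest value was Ogdh with Fh1 in liver (0.92), Sucla2 with Suclg1 in adipose tissue (0.91) and Idh3b with Fh1 in muscle (0.97). The lowest was Idh3a with Idh3g in liver (-0.03), Idh3b with Ogdh in adipose tissue (-0.59) and Ogdh with Sucla2 in muscle (-0.45). These points share their libraries and therefore any error of scaling. Other pairs of genes were not measured, so these values are not shown to be particular to the members. The liver values include mouse 74, which lay below its group mean for all 9 genes (mean log2 deviation -0.45).

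A list of 8 further cycle genes was described for comparison. In liver, Dlst (the E2 subunit of the 2-oxoglutarate dehydrogenase complex, log2 -0.60, adjusted p = 0.0210) and Dld (its E3 subunit, -0.41, adjusted p = 0.0218) were lower with age, 2 of 8 against 19.8% of all genes called in either direction, with a median of 0.02 over the list. These calls held in 7 and 5 of the 9 fits that left out a library. With Ogdh, all 3 components of that complex were lower in the old livers. The 4 succinate dehydrogenase genes were not called there (Sdha -0.29, Sdhb 0.23, Sdhc 0.26, Sdhd -0.12), nor were Idh2 (0.21) and Suclg2 (0.16).

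In adipose tissue, Sdhd (0.72, adjusted p = 0.0385), Idh2 (the NADP-dependent mitochondrial isocitrate dehydrogenase, 0.65, adjusted p = 0.0388) and Sdhc (0.54, adjusted p = 0.0387) were higher and Dlst was lower (-0.35, adjusted p = 0.0440), 4 of 8 against 19.1% of all genes, with a median of 0.35. Each of these held in 3 or fewer of the 9 fits that left out a library. In muscle, Sdhd (0.54, adjusted p = 0.0401) and Sdhb (0.44, adjusted p = 0.0272) were higher, 2 of 8 against 19.3% of all genes, with a median of 0.22, and held in 2 and 4 of the 9 fits. The succinate dehydrogenase genes that were called in these tissues encode the iron-sulfur subunit (Sdhb) and the membrane anchors (Sdhc and Sdhd).

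Reactions that feed the cycle and draw on it were read beside the shares called in either direction over all genes (19.8% in liver, 19.1% in adipose tissue and 19.3% in muscle). Differences between tissues were not tested for these lists. Of the pyruvate entry genes, 1 was higher and 2 lower of 12 tested in liver, where Pdpr, the regulatory subunit of pyruvate dehydrogenase phosphatase, was at -0.59 (adjusted p = 0.00864). In adipose tissue 2 were higher and 1 lower of 13, with Pdk2, a kinase that inactivates pyruvate dehydrogenase, at -1.17 (adjusted p = 0.0269, held in 5 of 9 fits). In muscle 4 were higher and 2 lower of 12, with the phosphatases Pdp1 at 0.77 (adjusted p = 0.0162) and Pdp2 at -0.83 (adjusted p = 0.0120). Of the filling and draining reactions, 5 of 16 were lower and 0 higher in liver, led by Got1, the cytosolic aspartate aminotransferase, at -1.97 (adjusted p = 0.00589). In adipose tissue 3 of 16 were higher, with Slc25a10, the dicarboxylate carrier, at 1.61 (adjusted p = 0.0167, held in 8 of 9 fits). In muscle 1 of 15 was higher and 2 lower, with Pck1 at -1.30 (adjusted p = 0.0165).

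Counterparts of the members were also read. Ogdhl, which resembles Ogdh, rose in muscle from 2.86 ± 1.10 to 8.72 ± 2.29 (log2 1.35, adjusted p = 0.00516), while Ogdh itself did not pass the test there. Csl, a citrate synthase-like gene, was at 0 in all liver samples and at 0.148 or less elsewhere, and shares 2.01% of the 50-base words of Cs. Mdh1 was higher in muscle (0.30, adjusted p = 0.0384, held in 1 of 9 fits). The regulator Ppargc1a had log2 differences of -0.53, -1.38 and 0.09 in liver, adipose tissue and muscle (adjusted p = 0.118, 0.0532 and 0.841).

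The genes most like the members were sought among 11210 genes with a mean value of 5 or more. Over all 27 samples, the mean of the 9 log2 values followed Tarsl2 (r = 0.995), Ndufs1 (0.995), Pmpca (0.993), Gapdh (0.992) and Immt (0.992) most closely, a measure set mainly by the tissues. After the mean of each tissue was subtracted, the closest were Atp5a1 (0.947), Dlat (0.935), Ndufs1 (0.927), Hsd17b4 (0.923) and Acadl (0.917). Against the same mean, which includes the member itself, the values of the members ran from 0.631 (Ogdh) to 0.920 (Mdh2).

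The other genes lie, in the same build, at chr10:128337727-128362482 (Cs, plus strand), chr2:130279309-130284451 (Idh3b, minus strand), chrX:73778963-73786897 (Idh3g, minus strand) and chr5:135778649-135790386 (Mdh2, plus strand). In the annotation, Idh3b overlaps Nop56, Cs overlaps Gm51822 and Gm23182, Ogdh overlaps Gm46270 and Gm45933, and Suclg1 overlaps Gm38834. Whether the counting used strand is not given in the sources used here, so reads in these overlaps may be shared.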

How the data were processed

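Poly-A RNA from 27 tissue samples was sequenced from directional libraries (NEBNext Ultra kit), after RNeasy extraction of liver and RNeasy Lipid extraction of adipose tissue and muscle. The paper instead names the RNeasy Mini Kit for all samples. If the kits differed, kit and tissue cannot be told apart where liver is compared with the other tissues. Per the labels, processing used CLC Genomics Workbench 23.0 with GRCm38.p6/mm10. The deposited table is headed CPM, but its values are not CPM. They are a signal made by the authors by dividing the reads on each gene by a factor specific to each library. Whole reads were recovered for 100% of values (within 0.01 of a read).

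Genes at 1 or more in at least 4 samples entered limma 3.58.1 (R 4.3.3) with a variance trend on log2(value + 1), a scale that understates the change of low genes, and were adjusted by Benjamini-Hochberg. Age was fitted in the 9 samples of each tissue. Interactions and tissues were fitted in 6 groups of 27 samples. Ratios of log2(value + 1) were tested by exact two-sided permutation over 126 splits (scipy 1.17.1). On recovered reads, edgeR 4.0.16 called 1311 genes higher and 1267 lower in liver, 1432 and 1260 in adipose tissue, and 1130 and 1323 in muscle. DESeq2 1.42.0 called 1849 and 1614, 2208 and 2140, and 1406 and 1811. Tests were checked on simulated data.

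The 5-month samples of the 3 tissues came from the same 4 mice by their numbers, and their deviations from the group means correlated at a mean r of 0.136 (-0.017 to 0.294 over 12 pairs). Replicate pairs of a group differed by more than sampling noise in all 48 pairs. Lengths came from GENCODE M21 transcripts (the median per gene), and coordinates, overlaps and promoters from RefSeq GRCm38.p6. The text names all 9 members, 8 further cycle genes (1 more is not reported here), and, of the other lists, at most 3 genes past the threshold per list and tissue, plus Suclg2, Mdh1, Csl, Ogdhl, Ppargc1a and Mlx. The members and lists were chosen with earlier results of these data known. The alternatives were other pseudocounts, filters, normalizations, variance models and tests, a length and GC trend removed, the mouse as a block, and each library left out.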

Additional observations from a re-analysis of the deposited data

Results flagged for a closer look

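A sample stood far from the others of its group in 5 of 102 group values of the cycle genes, where chance gives about 1 in 20 (5.1). These were Idh3a in the 20-month liver of mouse 16 (57.4), Idh3b in the 5-month adipose tissue of mouse D (97.1), Suclg1 in the 5-month muscle of mouse C (347), and Mdh2 (139) and Sdha (354) in the 20-month liver of mouse 74.

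The age difference differed between tissues for these genes by the interaction test. Between liver and adipose tissue the log2 difference was -0.59 for Cs, -1.24 for Idh3a, -0.77 for Ogdh, -1.0 for Sucla2, -1.01 for Fh1, -0.69 for Dld and -0.84 for Sdhd. Between liver and muscle it was -0.43 for Idh3b, -0.84 for Ogdh, -0.63 for Sucla2, -1.21 for Fh1, -0.57 for Dlst and -0.62 for Dld. Between adipose tissue and muscle it was 0.77 for Idh3a.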

How the results depend on the processing

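In liver, 2 members were called by age in the planned fit, and 4 with sample weights. In adipose tissue 3 were called, and 1 without the filter on low values. In muscle 1 was called, and 0 without the filter, without the variance trend and with all 27 samples in a single fit, 2 with a mean value of at least 5, 3 with DESeq2 and after rescaling without the 20 most abundant genes, and 4 after quantile normalization. For the liver against adipose interaction (5 called), rescaling and edgeR each gave 3 and sample weights 8. For liver against muscle (4 called), 2 were called without the filter, after quantile normalization and with edgeR. For adipose tissue against muscle (1 called), sample weights gave 2. Leaving out each library gave 0 to 3 called members in liver, 1 to 4 in adipose tissue, 0 to 6 in muscle, 2 to 4 for liver against muscle and 0 to 1 for adipose tissue against muscle. Over all genes, 2508 were called in liver, 4454 with sample weights and 1602 with the length and GC trend removed. In adipose tissue 2674 were called, 1525 without the filter, 8456 with sample weights, 4348 with DESeq2 and 5270 in the single fit, and in muscle 2451, with 1507 without the filter. Leaving out each library gave 959 to 3557, 397 to 3748 and 1158 to 3796 calls in liver, adipose tissue and muscle. The interactions gave 2424 (liver against adipose tissue), 2732 (liver against muscle) and 2285 calls (adipose tissue against muscle), and 6187, 4227 and 5361 with sample weights. The cause of these changes was not tested.

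The sign turned for small differences. In liver, Suclg1 by age turned to 0.057 (quantile), 0.13 (rescaled) and 0.0081 (sample weights), and Idh3a to 0.059 (rescaled). In adipose tissue, removing the length and GC trend gave -0.055 for Idh3g and 0.049 for Ogdh. In muscle, Cs turned to 0.082 (quantile) and 0.0062 (rescaled), and Ogdh to 0.14, 0.039 and, with the length and GC trend removed, 0.092. Between liver and adipose tissue at 5 months, quantile normalization and rescaling gave -0.66 and -0.85 for Cs and -0.25 and -0.82 for Idh3a, and removing the length and GC trend gave -0.11 for Idh3a. At 20 months they gave -0.42 and -0.33 for Ogdh, and rescaling gave -0.020 for Mdh2. Suclg1 between liver and muscle at 5 months was -0.049 with median-of-ratios factors, -0.18 with quantile normalization, -0.27 rescaled, -0.0079 with edgeR, -0.053 with DESeq2 and -0.38 with the length and GC trend removed. Among interactions, rescaling gave 0.0091 for Idh3g (liver against adipose) and -0.016 for Mdh2 (adipose against muscle). Leaving out each library gave ranges that crossed 0 for Suclg1 by age in liver (-0.11 to 0.074), Idh3g in adipose tissue (-0.0023 to 0.066), Ogdh in muscle (-0.085 to 0.0049), Suclg1 between liver and muscle at 5 months (-0.036 to 0.081) and Idh3a between liver and adipose tissue at 5 months (-0.012 to 0.32).

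With a library left out, the ratio tests allow no p below 0.0179 or 0.0286. The change in Idh3a to Idh3g then ranged over 0.93 to 1.24 in adipose tissue, -0.017 to 0.18 in liver and 0.16 to 0.35 in muscle, where it passed without the young sample of mouse D (adjusted p = 0.0402). The change in Sucla2 to Suclg2 was 0.72 to 0.98 in adipose tissue and -0.60 to -0.43 in liver, and that in Mdh2 to Mdh1 in liver was -0.0085 to 0.21. Adjusted p of the adipose and liver ratios that had passed were then 0.0804 to 0.161.

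With the mouse as a replicate block (consensus correlation 0.101), 5, 4 and 1 members were called in the interactions of liver with adipose tissue, liver with muscle and adipose tissue with muscle, and the block changed no call of a member. Together with the length and GC trend removed, the replicate block gave -0.11 for Idh3a (liver against adipose tissue at 5 months) and -0.38 for Suclg1 (liver against muscle at 5 months), as without the block. In the interactions it added Mdh2 (adjusted p = 0.0165) and Suclg1 (0.0308) between liver and adipose tissue, added Mdh2 (0.0189) and Idh3g (0.0374) between liver and muscle, and lost Sucla2 there (0.0527).

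With 4 and 5 samples per group, misses near the threshold say little about the size of a difference, and the intervals above give what the data allow. A length was known for 93.1 to 96.0% of the genes tested.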

Other observations

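Genes of the other lists passed the age test in the same libraries. In liver, Pparg (log2 1.06, adjusted p = 0.0119) and Mlxipl, which encodes ChREBP (0.78, adjusted p = 0.00890), were higher and Gabpa (-0.49, adjusted p = 0.0119) was lower, and each held in 9 of 9 fits that left out a library. Gls2, the liver glutaminase, was lower (-0.77, adjusted p = 0.0211, held in 7 of 9 fits).

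In adipose tissue, Idh1, the cytosolic NADP-dependent isocitrate dehydrogenase, was higher (1.09, adjusted p = 0.0260, held in 4 of 9 fits), as was Esrra (0.82, adjusted p = 0.0314, 3 of 9), while Mlxipl was lower (-0.77, adjusted p = 0.0330, 5 of 9). In muscle, the mitochondrial transcription factor Tfam was higher (0.55, adjusted p = 0.0124), and the regulators Pprc1 (-0.72, adjusted p = 0.00592) and Ppard (-0.71, adjusted p = 0.00502) and the Mlx partner Mnt (-0.78, adjusted p = 0.00436) were lower. These 4 held in 9 of 9 fits. All values are from limma.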
